A study of Mus musculus with 46 samples.

Results

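The 8 tubulin genes Tuba1a, Tuba1b, Tuba1c, Tubb2a, Tubb2b, Tubb4b, Tubb5 and Tubb6 were followed through ribosome footprints and transcripts of EPP2 cells, a line of murine pancreatic cancer. They were chosen by symbol, and all 8 were among the 9857 symbols that stood on 1 entry in both the DMSO and the torin 1 count tables. Their changes in these libraries had been seen when they were chosen, although the rule itself names symbols only and no threshold, so the p-values below describe these genes and are no independent support for a choice of them. All cells came from a clone of 1 cell that carries doxycycline-inducible Cas9 (iCas9), so every group shared this clone. In the Ctu1 iKO cells, doxycycline at 300 ng/mL for 4 days had induced the editing of Ctu1, and control cells kept wild-type Ctu1. Controls of such editing either carried guides against a non-coding region or went without doxycycline, per the methods, and the labels do not say which of these the control cells here were. Each genotype received DMSO or 300 nM torin 1, an inhibitor of the mTOR kinase, for 2 h. Per the methods, footprint and transcript libraries came from the same lysates, and each kind has 23 labelled libraries, of which 6 were control with DMSO, 6 control with torin 1, 5 Ctu1 iKO with DMSO and 6 Ctu1 iKO with torin 1.

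Alpha- and beta-tubulin pair into the heterodimer from which microtubules are built, and each is encoded by several genes, the isotypes, which differ mostly in the glutamate-rich tail at the carboxy terminus. Cells adjust tubulin mRNA to the pool of free dimer. In this autoregulation, TTC5 recognises the first residues of the nascent chain at the ribosome and recruits SCAPER and the CCR4-NOT deadenylase, which degrade the mRNA being translated. New tubulin is folded by prefoldin, the CCT chaperonin and the cofactors TBCA to TBCE. Ctu1 is the catalytic subunit of the cytosolic thiouridylase, which modifies the wobble uridine (U34) of the tRNAs that read the codons AAA, CAA and GAA.

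Library totals ran from 4602092 to 52907878 footprints and from 129881946 to 325494304 transcript counts. All transcript counts were even numbers. The 300 genes with the largest torin 1 effect in replicates 1 and 2 were used to place the other libraries. All 15 remaining footprint libraries lay on the side of their label. Among the transcript libraries, the Ctu1 iKO libraries 4 and 5 labelled DMSO sat with torin 1, and libraries 5 and 6 of both torin 1 groups sat with DMSO, so these 6 lay opposite to the footprint library of the same label and number. Transcripts were compared in replicates 1 to 3, as had been set when the genes were chosen. None of the 6 is among these replicates, and the later libraries are given apart. Of replicates 1 to 3, replicates 1 and 2 had defined the axis and could not be checked on it, and replicate 3 lay on the side of its label in each of the 4 groups. Ctu1 was listed with DMSO only, at 2.53 ± 0.65 CPM of footprints (counts per 1000000 counts of that table, SD, n = 6) in control and 1.79 ± 0.42 (n = 5) in Ctu1 iKO cells (edgeR, adjusted p = 0.35), and its transcripts were at 4.62 and 4.63 CPM (n = 3 each). Cas9 edits need not lower either count. The CPM of genes in both tables, the tubulins included, are per 1000000 counts over the shared symbols. The epithelial markers Krt8, Krt18, Krt19 and Sox9 were listed in every table, Epcam in 1 table at 2.89 footprint CPM of that table or less, and Krt7, Cdh1 and Muc1 in none. Vim and Fn1, markers of a mesenchymal state, lay between 1844 and 8728 footprint CPM, and no acinar, islet or endothelial marker was listed. Of 3 immune markers, Cd68 was listed in 1 table at 1.27 to 6.11 footprint CPM of that table. Of 4 fibroblast markers, Pdgfra, Pdgfrb and Col1a1 were listed in both tables, at 6.83 to 704 footprint CPM, and Dcn in 1 table at 0.63 to 3.89 footprint CPM of that table, and their part in the tubulin values was not tested. All 8 of the checked mRNAs with a terminal oligopyrimidine tract, the best-known targets of mTOR, lost footprints with torin 1 in either genotype. The methods give 2 independent biological replicates on consecutive days, fewer than the numbered libraries of a group. The figure legends of the paper give 5 or 6 independent experiments for ribosome profiling and 2 for RNA sequencing. The labels do not say how the libraries were split over experiments. The p-values therefore measure the spread between these libraries, which may be partly technical. In such bulk libraries, fewer cells with a transcript and less of it per cell cannot be told apart.

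The coding sequences show how closely these genes resemble each other. The first 30 coding bases are given because autoregulation reads the start of the chain. Capitals mark codons 1 to 4.

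Tuba1a: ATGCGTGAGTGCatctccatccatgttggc
Tuba1b: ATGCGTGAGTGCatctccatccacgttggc
Tuba1c: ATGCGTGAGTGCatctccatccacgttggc
Tubb2a: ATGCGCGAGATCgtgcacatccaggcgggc
Tubb2b: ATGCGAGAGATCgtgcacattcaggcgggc
Tubb4b: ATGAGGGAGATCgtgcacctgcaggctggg
Tubb5: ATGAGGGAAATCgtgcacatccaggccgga

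The 3 alpha genes shared all 12 of these bases, whereas no 2 of the 4 beta genes shown had the same 12. These differences between the beta genes are silent, as all 4 stretches encode the same residues. Tubb5 was the only one of the 7 with GAA right after its first pair of codons, a codon read by a Ctu1-modified tRNA. The last 60 coding bases, which encode most of the tail and end in the stop codon, are given for 5 of the genes because the isotypes differ there. Capitals mark the codons AAA, CAA and GAA in frame.

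Tuba1c: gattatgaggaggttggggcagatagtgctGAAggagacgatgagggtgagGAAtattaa
Tubb2a: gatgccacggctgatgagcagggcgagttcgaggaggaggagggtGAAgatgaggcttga
Tubb2b: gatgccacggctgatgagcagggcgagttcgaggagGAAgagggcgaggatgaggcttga
Tubb4b: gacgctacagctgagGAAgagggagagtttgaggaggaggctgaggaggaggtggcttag
Tubb5: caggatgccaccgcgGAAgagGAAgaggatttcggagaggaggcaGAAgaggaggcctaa

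These 5 tails were rich in GAG and GAA, and none held AAA or CAA. Of the 19 codons before the stop, GAA took 3 in Tubb5, 2 in Tuba1c and 1 each in Tubb2a, Tubb2b and Tubb4b. Tubb6, whose tail is not shown, had 5. The 7 genes lie, in the GRCm38 build, at chr15:98949837-98953703 (Tuba1a), chr15:98931425-98934565 (Tuba1b), chr15:99029891-99038110 (Tuba1c), chr13:34074274-34078007 (Tubb2a), chr13:34126748-34130466 (Tubb2b), chr2:25222160-25224702 (Tubb4b) and chr17:35833921-35838306 (Tubb5). Tuba1c is on the plus strand and the other 6 are on the minus strand. Each has 4 exons in the transcript used, and the stretches shown are exonic and coding.

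Over the whole coding sequence, all 8 genes were poor in the codons that depend on U34 modification. AAA, CAA and GAA together made up 3.38% of the codons of Tubb5, the highest of the 8, and 1.35% of those of Tubb2a, the lowest. The median of the 9626 listed genes with a coding sequence was 6.12%. Tubb5 owed its place to GAA, with 12 GAA against 24 GAG codons, and 33.05% of the listed genes had a lower GAA share of the pair. In Tubb2b GAA made up 13.9% of the pair (5 GAA and 31 GAG codons), and 4.38% of the listed genes had a lower share. For CAA and CAG, CAA was absent from Tuba1b, Tuba1c and Tubb2a and made up 9.09% of the pair or less in the other 5.

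How well reads can be assigned differed strongly between the members. The coding sequences of Tuba1a and Tuba1b were 98.3% identical, those of Tuba1b and Tuba1c 97.9%, and those of Tubb2a and Tubb2b 96.5%, whereas Tubb5 was at most 84.6% identical to another member. Of all 28-base windows of the coding sequence, about the length of a footprint, 2.41% to 4.76% in the 3 alpha genes occurred in no other gene. This share was 30.1% in Tubb2a, 22.7% in Tubb2b and 19.8% in Tubb4b, which shares most of its windows with its pseudogene Tubb4b-ps1. It reached 94.3% in Tubb5 and 92.3% in Tubb6, the member on the plus strand at chr18:67390717-67402749. The footprint count of Tuba1a stayed between 0.68 and 0.74 times that of Tuba1b in all 23 libraries, and that of Tuba1c between 0.85 and 0.93 times. The corresponding transcript ratios ran from 0.17 to 0.40 and from 0.23 to 0.34. Footprints of Tuba1a, Tuba1b and Tuba1c, and likewise of Tubb2a and Tubb2b, and of Tubb4b beside its pseudogene, are therefore uncertain for the single gene, and the sums of the alpha genes and of Tubb2a and Tubb2b are given below where they matter. Tubb5 and Tubb6 carry no such limit.

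**Figure D1:**
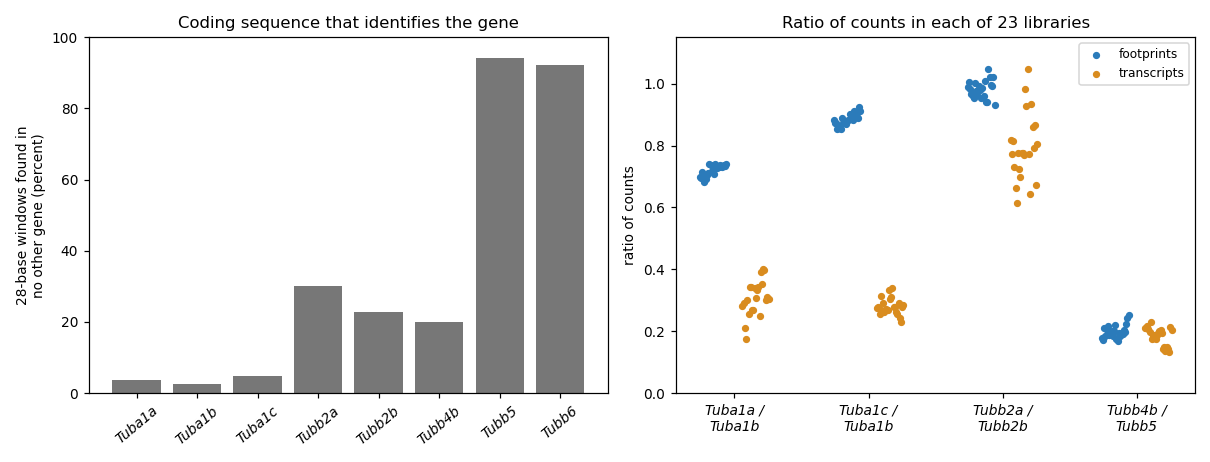
Left, percent of 28-base windows of each coding sequence that occur in no other annotated gene. Right, ratio of the counts of 2 genes in each of 23 footprint libraries (blue) and 23 transcript libraries (orange), 1 point per library in order of group and replicate. Tuba1a and Tuba1c held nearly fixed footprint ratios to Tuba1b, above their transcript ratios in every library.

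In control cells with DMSO, Tubb5, the class I beta-tubulin of most tissues, had the highest footprint level per length, 1193 ± 72.0 CPM per kb of coding sequence (SD, n = 6). Tuba1b followed with 926 ± 79.7, Tuba1c with 805 ± 63.0 and Tuba1a with 647 ± 59.1 CPM per kb. Tubb4b, a widely expressed beta isotype, stood at 231 ± 24.8 and Tubb6, the class V isotype, at 110 ± 4.48 CPM per kb. Tubb2b (31.1 ± 6.46) and Tubb2a (30.3 ± 6.24), which are best known from neurons, came last and did not differ beyond their spread. Transcripts per kb of transcript gave the same gene on top, Tubb5 at 449.5 ± 46.5 CPM per kb (n = 3). Tuba1b was second at 296 ± 58.6, and Tuba1a (73.2 ± 0.84) and Tuba1c (72.0 ± 13.99) did not differ beyond their spread. On the scale of CPM over the shared symbols, the 8 genes together took 5351 ± 380 footprint CPM and 2470 ± 304 transcript CPM in control cells with DMSO. Tubb5 made up 48.2% of this transcript sum but 29.8% of the footprint sum, and Tuba1c 5.78% and 20.3%. These shares are not per length, and the transcript of Tubb5 has 2649 bases, of which 1335 are coding. The footprint sum also contains the counts of the 3 alpha genes, whose assignment is uncertain. How far either shaped these shares was not tested.

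**Figure D2:**
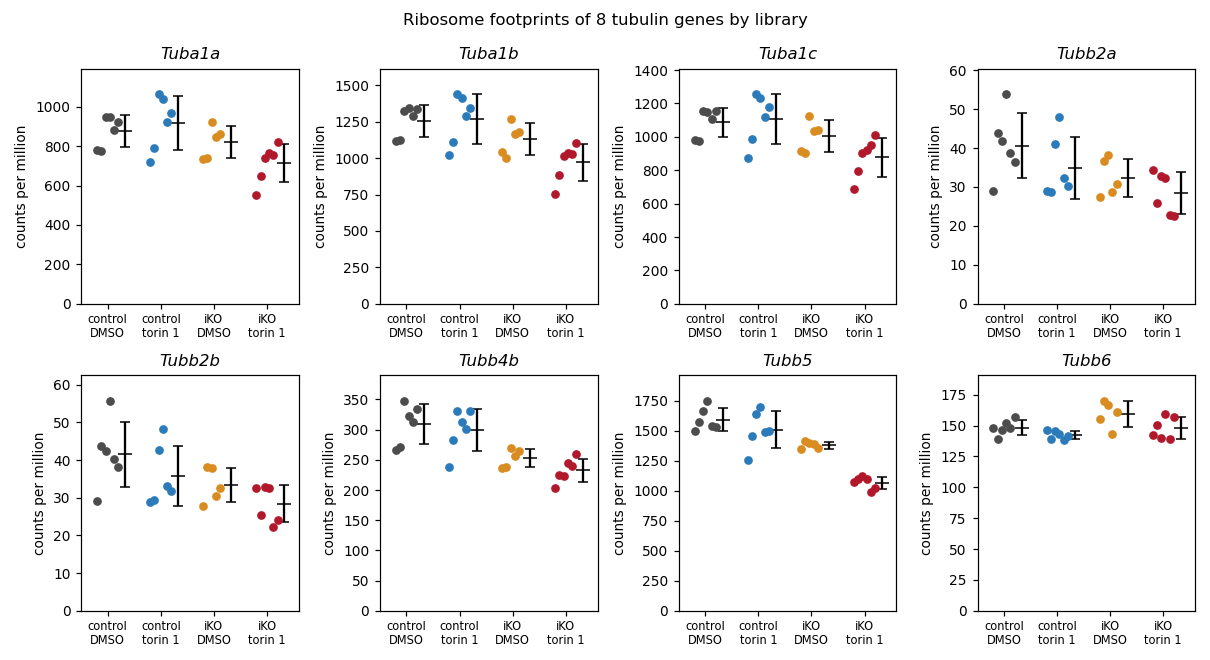
Footprint CPM over the shared symbols (y axis, from 0) of each tubulin gene in 6 control DMSO, 6 control torin 1, 5 Ctu1 iKO DMSO and 6 Ctu1 iKO torin 1 libraries (points, ordered by replicate number), with mean ± SD beside them. Tubb5 lay between 992 and 1124 in Ctu1 iKO cells with torin 1, below every library of the other groups. How many of all genes did so was not counted.

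Tubb5 footprints were highest in control cells with DMSO and lowest in Ctu1 iKO cells with torin 1. In control cells with DMSO they lay between 1500 and 1751 CPM with a median of 1556. Control cells with torin 1 ranged from 1261 to 1700 CPM around 1496. The 5 Ctu1 iKO libraries with DMSO were at 1347, 1411, 1395, 1388 and 1354 CPM. With torin 1, the Ctu1 iKO libraries were at 1070, 1099, 1124, 1096, 992 and 1026 CPM. The range of this group overlapped with none of the other 3, while the 2 control groups overlapped. In single comparisons of this group, 3.41% of the shared genes were lower without overlap than in Ctu1 iKO cells with DMSO, and 2.08% than in control cells with torin 1. How many genes lay below all 3 groups at once was not counted. The 8 genes summed gave 4851 to 5777 footprint CPM in control cells with DMSO, 4316 to 5963 in control cells with torin 1, 4487 to 5226 in Ctu1 iKO cells with DMSO and 3476 to 4423 in Ctu1 iKO cells with torin 1. In each group the sum was lower in replicates 1 and 2 than in the later ones (means of 4900 and 5577 CPM in control cells with DMSO, 3667 and 4270 in Ctu1 iKO cells with torin 1).

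The comparison of Ctu1 iKO with control cells under DMSO asks whether footprints differ with the loss of Ctu1 when mTOR is not inhibited. Doxycycline and the induction of Cas9 cannot be told apart from the loss of Ctu1 here where control cells lacked them. No member passed the test (edgeR quasi-likelihood with adjustment over all genes), where 2.66% of the 10397 genes tested were called in either direction. Of the 8 estimates, 7 lay below 0, with a median log2 change of -0.22 against 0.00 over all genes. Tubb4b gave -0.33 (SE 0.09, adjusted p = 0.065) and Tubb5 -0.25 (SE 0.07, adjusted p = 0.085). Tubb2a (-0.37, SE 0.16) and Tubb2b (-0.36, SE 0.16) had wider errors, and Tuba1b (-0.19, SE 0.09), Tuba1c (-0.15, SE 0.08) and Tuba1a (-0.13, SE 0.09) smaller estimates. Tubb5 was lower in all 5 Ctu1 iKO libraries than in any control library, a separation that 1.58% of the shared genes showed in this direction. Tubb6 gave 0.06 (SE 0.08), with 148 ± 6.03 CPM in control and 159 ± 10.7 in Ctu1 iKO cells. Without control replicate 1, Tubb4b was called (adjusted p = 0.040).

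In control cells, torin 1 tests what inhibition of mTOR does to footprints when U34 modification is intact. No tubulin gene was called, while 7.24% of the 9856 genes tested were. The estimates ran from -0.31 (Tubb2b, SE 0.17) to -0.02 (Tuba1a, SE 0.11), with Tubb5 at -0.17 (SE 0.09, adjusted p = 0.34). These values are relative to a trimmed mean (TMM) of all genes. Without it, the median gene rose by 0.10 on the log2 scale, Tuba1a, Tuba1b and Tuba1c turned to 0.07, 0.01 and 0.03, and the share of called genes that were higher went from 40.2% to 64.8%. Replicate numbers paired these samples, and with the replicate as a block Tubb5 (-0.17, SE 0.04, adjusted p = 0.019), Tubb2b (-0.31, adjusted p = 0.024), Tubb2a (-0.31, adjusted p = 0.028) and Tubb6 (-0.15, adjusted p = 0.048) were called lower, as were 1045 genes in all. Tubb5 and Tubb6 were lower with torin 1 in 6 of 6 same-numbered pairs of CPM values, and Tubb2a, Tubb2b and Tubb4b in 5 of 6, whereas Tuba1a and Tuba1c were higher in 5 of 6 and Tuba1b was higher in 3 and lower in 3. Such pairs were not counted over all genes.

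In Ctu1 iKO cells, torin 1 lowered the footprints of Tubb5. Its log2 change was -0.46 (SE 0.07, adjusted p = 0.00063), or -27.5%, in a comparison that called 4.52% of 9855 genes lower. The 2 groups did not overlap in CPM, as was the case in this direction for 3.41% of the shared genes. The call held in each of 11 fits that left out 1 library, with adjusted p up to 0.0029. The 7 other members gave -0.20 (Tubb6, SE 0.09) to -0.33 (Tubb2b, SE 0.15) and did not pass in edgeR over all libraries, Tuba1b coming nearest at -0.32 (SE 0.10, adjusted p = 0.089). DESeq2 called 2 of the 8 lower, among 619 genes lower in all, and replicates 3 and later also called 2, among 468. All 8 estimates were below 0, with a median of -0.29 against 0.02 over all genes. With the alpha genes summed, the change was -0.30 (SE 0.10, adjusted p = 0.093). In replicates 1 to 3 alone Tubb5 gave -0.44 (SE 0.10) with adjusted p = 0.10, and in replicates 3 and later -0.49 (SE 0.08) with adjusted p = 0.0034.

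Under torin 1, Ctu1 iKO cells carried fewer footprints of Tubb5, Tubb4b and Tuba1b than control cells. Tubb5 changed by -0.54 (SE 0.09, adjusted p = 0.0027), or -31.4%, Tubb4b by -0.41 (SE 0.10, adjusted p = 0.031) and Tuba1b by -0.43 (SE 0.12, adjusted p = 0.046). These were 3 of 8 members, where 2.6% of 9913 genes were called lower. Tuba1a gave -0.41 (SE 0.12, adjusted p = 0.074), Tuba1c -0.38 (SE 0.12, adjusted p = 0.083), and the sum of the 3 alpha genes -0.41 (SE 0.12, adjusted p = 0.064). Tubb2a (-0.35, SE 0.17) and Tubb2b (-0.38, SE 0.16) had estimates of like size with wider errors. Tubb6 was the exception at 0.01 (SE 0.08), with 142 ± 3.49 CPM in control and 148 ± 8.80 CPM in Ctu1 iKO cells (n = 6 each). All 6 Ctu1 iKO libraries were below all 6 control libraries for Tubb5, as they were for 2.08% of the shared genes. Tuba1a, Tuba1b, Tuba1c, Tubb4b and Tubb5 were each lower in 6 of 6 same-numbered pairs. This was not counted over all genes, and the 3 alpha genes are not separate observations, as their footprints are uncertain for the single gene.

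The Tubb5 call under torin 1 held without any single library (adjusted p up to 0.0088). The other 2 calls were less stable. Tuba1b passed without control replicate 1 or Ctu1 iKO replicate 6 only, and its adjusted p ran from 0.017 to 0.11 over the 12 fits. Tubb4b passed in 5 of the 12, from 0.0058 to 0.079, and failed without control replicate 2, 3, 4, 5 or 6 or Ctu1 iKO replicate 2 or 3. Without control replicate 1, Tuba1a (adjusted p = 0.027) and Tuba1c (0.029) were called as well. With the replicate as a block, for which the numbers paired the samples, Tubb5, Tuba1b, Tuba1a, Tuba1c and Tubb4b were called, with adjusted p from 0.00054 to 0.0022 and log2 changes from -0.54 to -0.38, among 729 genes lower. Replicates 3 and later gave Tubb5 as -0.64 (SE 0.08, adjusted p = 0.0012), and replicates 1 and 2 gave -0.35 (SE 0.16, adjusted p = 0.62), in a fit that called 0 genes in either direction.

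Whether torin 1 acts differently on tubulin footprints in the 2 genotypes was tested as an interaction. The difference of the torin 1 effects for Tubb5 was -0.29 (SE 0.11, unadjusted p = 0.016, adjusted p = 0.76). The other members ran from -0.27 (Tuba1a, SE 0.15) to 0.03 (Tubb2a, SE 0.24), none passed, and 0.639% of 9857 genes were called. A lower Tubb5 in Ctu1 iKO cells with torin 1 is thus not shown to exceed what the genotype and torin 1 gave separately.

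**Figure D3:**
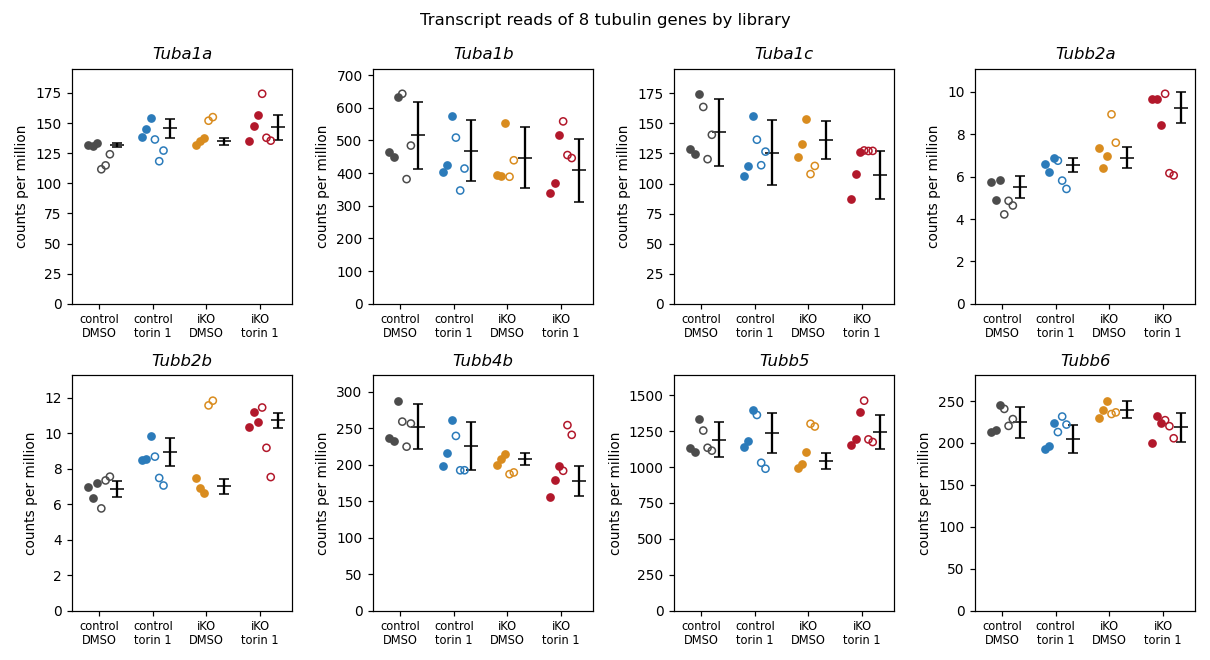
Transcript CPM over the shared symbols (y axis, from 0) of each tubulin gene in the same 4 groups. Filled points are replicates 1 to 3, on which mean ± SD rest, and open points are later replicates, 6 of which lay on the opposite side of the torin 1 axis from their label. Tubb2a and Tubb2b were highest in Ctu1 iKO cells with torin 1 among the filled points.

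Tubb2b, a minor beta isotype here, rose with torin 1 in both genotypes. It was at 7.0, 6.33 and 7.19 transcript CPM in control cells with DMSO and at 8.48, 8.56 and 9.87 with torin 1, without overlap, as were 11.5% of the shared genes in this direction. In Ctu1 iKO cells it was at 7.48, 6.91 and 6.65 CPM with DMSO and at 10.4, 11.2 and 10.6 with torin 1, again without overlap, as were 9.88% of the shared genes. The log2 change was 0.42 (SE 0.11, adjusted p = 0.045) in control cells, where 5.69% of 9617 genes were called higher, and 0.68 (SE 0.10, adjusted p = 0.011) in Ctu1 iKO cells, where 3.73% of 9619 were. Tubb2a rose in Ctu1 iKO cells by 0.48 (SE 0.11, adjusted p = 0.043), from 7.35, 6.40 and 6.96 to 9.68, 9.67 and 8.42 CPM, and gave 0.28 (SE 0.11, adjusted p = 0.14) in control cells. The 2 genes summed gave 0.36 (SE 0.10, adjusted p = 0.054) in control and 0.58 (SE 0.09, adjusted p = 0.013) in Ctu1 iKO cells.

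Leaving out any 1 of the 6 libraries took the Tubb2b call away in control cells (adjusted p from 0.060 to 0.17). In Ctu1 iKO cells, Tubb2b lost its call without DMSO replicate 1, DMSO replicate 2 or torin 1 replicate 2 (0.054, 0.058 and 0.052), and Tubb2a kept its call without torin 1 replicate 3 only (0.033 to 0.16 over the 6 fits). When all replicates entered by their labels, none of the 8 genes was called in either torin 1 comparison, in fits that called 448 genes higher and 468 lower in control cells and none of 9633 in Ctu1 iKO cells, and Tubb2b gave 0.19 (SE 0.19) in the latter. In that group with DMSO, replicates 4 and 5, which sat with the torin 1 profiles, were at 11.6 and 11.8 CPM of Tubb2b.

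Tubb5 transcripts were at 1132, 1108 and 1332 CPM in control cells with DMSO and at 1139, 1181 and 1395 with torin 1. In Ctu1 iKO cells they were at 994, 1025 and 1106 CPM with DMSO and at 1157, 1196 and 1383 with torin 1, without overlap, as were 9.88% of the shared genes in this direction. Replicate 3 was the highest in each of the 4 groups. The torin 1 change was 0.09 (SE 0.12) in control and 0.32 (SE 0.10, adjusted p = 0.098) in Ctu1 iKO cells, where the footprints had fallen. Tuba1b gave -0.11 (SE 0.19) and -0.07 (SE 0.20), Tubb4b -0.13 (SE 0.14) and -0.16 (SE 0.11), and Tubb6 -0.11 (SE 0.10) and -0.07 (SE 0.09). The replicate numbers paired the transcript samples of replicates 1 to 3. With the replicate as a block, torin 1 raised Tubb2b, Tubb2a and Tuba1a and lowered Tubb4b and Tuba1c in control cells (log2 changes of 0.42, 0.29, 0.17, -0.14 and -0.16, adjusted p up to 0.030). The same fit in Ctu1 iKO cells raised Tubb2b (0.68), Tubb2a (0.48) and Tubb5 (0.31) and lowered Tuba1c (-0.30), with adjusted p up to 0.0085, but it called 1992 and 1641 genes higher and 2214 and 1737 lower in the 2 genotypes.

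In edgeR, no tubulin transcript was called for loss of Ctu1 with DMSO (5.12% of 10119 genes called) or with torin 1 (1.31% of 9650), whereas DESeq2 called Tubb2a with torin 1 (0.54, adjusted p = 0.00041, among 631 genes higher and 461 lower). Tubb2a came nearest, with log2 changes of 0.35 (SE 0.11, adjusted p = 0.12) and 0.54 (SE 0.11, adjusted p = 0.063), and Tubb4b gave -0.27 (SE 0.10) and -0.29 (SE 0.14), and Tubb6 0.11 (SE 0.09) and 0.15 (SE 0.10). Without Ctu1 iKO torin 1 replicate 3, Tubb2a passed under torin 1 (adjusted p = 0.041). Tubb5 transcripts changed by 0.05 (SE 0.12) under torin 1, against the -0.54 of its footprints. With the replicate as a block, Tubb2a was called higher in both comparisons (0.35 and 0.54) and Tubb4b (-0.26 and -0.29) and Tuba1b (-0.19 and -0.15) lower, Tubb5 lower with DMSO (-0.17) and Tubb2b higher with torin 1 (0.31), each with adjusted p up to 0.045. That fit called 1450 genes higher and 1381 lower with DMSO and 1671 and 1491 with torin 1. The difference of the torin 1 effects was called for none of the 8 transcripts, and for 0% of 9616 genes. At an unadjusted p under 0.05, 140 genes and none of the 8 passed, and DESeq2 called 3 genes.

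**Figure D4:**
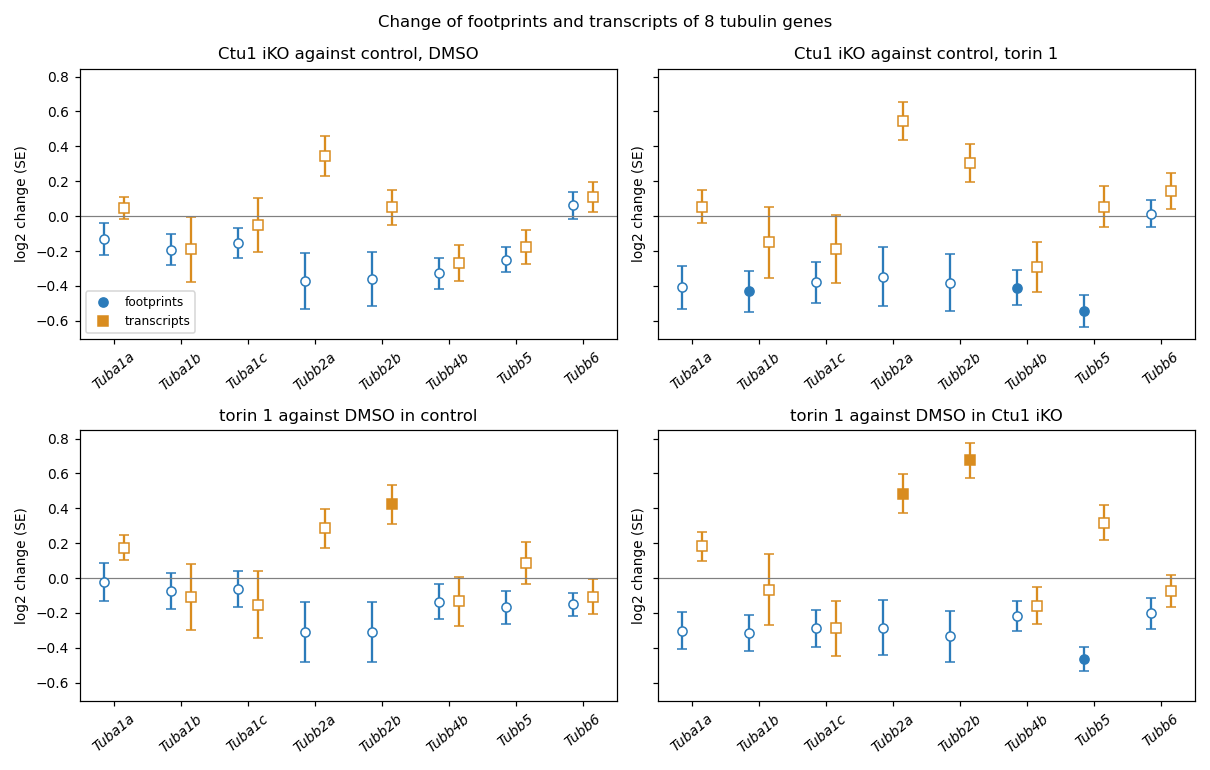
Log2 change with its SE (y axis) of footprints (blue circles) and transcripts (orange squares) of the 8 tubulin genes in the 4 comparisons. Filled symbols mark an adjusted p under 0.05. Tubb5 footprints fell in both comparisons that involve Ctu1 iKO cells with torin 1, while its transcript estimates lay at 0.05 and 0.32.

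Footprints relative to transcripts were tested in 1 model over both kinds of library. In Ctu1 iKO cells, torin 1 lowered this ratio for Tubb5 by -0.78 on the log2 scale (SE 0.12, adjusted p = 0.00026) and for Tubb2b by -1.01 (SE 0.22, adjusted p = 0.011), where 1.98% of 9619 genes were called lower. Both calls held in all 17 fits without 1 library. The Tubb5 call also held under each of 8 other settings, with adjusted p up to 0.026, whereas Tubb2b did not pass in replicates 1 to 3 (adjusted p = 0.064), in replicates 1 and 2 (-0.93, adjusted p = 0.35) or with all transcript replicates (-0.53, adjusted p = 0.40). Tubb2a gave -0.77 (SE 0.23, adjusted p = 0.14) and Tuba1a -0.48 (SE 0.16, adjusted p = 0.23). The Tubb2b ratio combined higher transcripts with footprints of 27.8 to 38.1 CPM with DMSO and 22.4 to 32.95 CPM with torin 1, which overlapped, and the 2 genes summed gave -0.89 (SE 0.21, adjusted p = 0.028). Tuba1c (0.00, SE 0.19), Tubb4b (-0.06, SE 0.14) and Tubb6 (-0.13, SE 0.13) lay near 0. With library totals alone, the median gene of this comparison shifted to 0.19.

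In edgeR, the other ratio comparisons called no tubulin gene. In control cells torin 1 gave -0.25 (SE 0.16) for Tubb5 and -0.73 (SE 0.27, adjusted p = 0.58) for Tubb2b, where 1.3% of 9617 genes were called. Loss of Ctu1 under torin 1 gave Tubb5 -0.60 (SE 0.15, adjusted p = 0.096) and Tubb2a -0.90 (SE 0.26, adjusted p = 0.22), where 0.622% of 9650 genes were called, and all 8 estimates were below 0 with a median of -0.38. This Tubb5 value passed without transcript control torin 1 replicate 3 (adjusted p = 0.044) or footprint control torin 1 replicate 1 (0.029), and with DESeq2 (-0.60, adjusted p = 0.0055), which called 2 genes higher and 104 lower of the 2728 to which it gave an adjusted p. Loss of Ctu1 with DMSO called 0.0198% of 10119 genes, and Tubb2a gave -0.72 (SE 0.24, unadjusted p = 0.0072) without passing. With the replicate as a block, torin 1 in control cells called Tubb2b (-0.73, adjusted p = 0.0060) and Tubb2a (-0.60, adjusted p = 0.032), and loss of Ctu1 under torin 1 called Tubb5 (-0.60, adjusted p = 0.0029), Tuba1a (-0.46, adjusted p = 0.0058) and Tubb2a (-0.89, adjusted p = 0.038). The 2 fits called 42 genes higher and 233 lower, and 12 higher and 170 lower.

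Of 12 other tubulin genes on a list, 8 were listed in both tables. The only one called in any comparison was Tuba4a, an alpha isotype, whose footprints fell with torin 1 in Ctu1 iKO cells (-0.54, SE 0.14, adjusted p = 0.028), where 4.52% of all genes were called lower. Genes of the machinery that folds tubulin were called in footprints too. Under torin 1, 7 of 22 folding genes were called lower in Ctu1 iKO than in control cells and none higher, with a median log2 change of -0.29 against 0.01 over all genes, of which 2.6% were called lower. Cct2 (-0.71, SE 0.09), Tcp1 (-0.52, SE 0.11) and Cct4 (-0.49, SE 0.10), subunits of the CCT chaperonin, and Vbp1 (-0.46, SE 0.11), a prefoldin subunit, had the largest changes. Torin 1 in Ctu1 iKO cells lowered 5 of the 22, beside 4.52% of all genes, led by the prefoldin subunit Pfdn5 (-1.13, SE 0.14), and raised Tbcel (0.70, SE 0.17), which encodes a protein like the cofactor TBCE. In control cells torin 1 already lowered 3 of the 22, Pfdn5 (-0.45, SE 0.08), Cct2 (-0.40, SE 0.08) and Cct4 (-0.35, SE 0.08), and raised Tbcel (0.60, SE 0.15), where 7.24% of all genes were called. Loss of Ctu1 with DMSO lowered Cct2 (-0.39, SE 0.08), where 2.66% of all genes were called. The difference of the torin 1 effects passed for Pfdn5 (-0.67, SE 0.15, adjusted p = 0.037) and for no other of the 22, where 0.639% of all genes were called. In transcripts, torin 1 called none of the 22 lower in either genotype, where 712 of 9617 and 435 of 9619 genes were called lower. It raised Tbcel in both (0.45, SE 0.09 and 0.45, SE 0.08), beside 547 and 359 genes called higher. Loss of Ctu1 with DMSO lowered transcripts of Cct6a, another CCT subunit (-0.30, SE 0.07), where 5.12% of all genes were called.

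The 12 genes of tubulin mRNA autoregulation, Ttc5, Scaper and 10 CCR4-NOT subunits, were not called in footprints in any comparison. In transcripts, Scaper was the only one of the 12 called with torin 1 in control cells (0.40, SE 0.07, adjusted p = 0.010), where 5.69% of 9617 genes were called higher. None of 13 listed genes for tubulin modifying enzymes was called in any comparison. Among 30 microtubule-associated and regulating genes, torin 1 raised Dync1h1, the heavy chain of cytoplasmic dynein, in footprints (1.03, SE 0.13 in control and 1.57, SE 0.18 in Ctu1 iKO cells) and in transcripts (0.97, SE 0.16 and 1.33, SE 0.20). Dynll1, a dynein light chain, fell in footprints by -0.38 (SE 0.07) and -0.55 (SE 0.09), and in Ctu1 iKO transcripts by -0.47 (SE 0.08). Map1lc3b, which encodes the autophagy protein LC3B, was the only one of the 30 called in footprints for loss of Ctu1 with DMSO (0.58, SE 0.13, where 2.66% of all genes were called). Under torin 1, loss of Ctu1 called 3 of the 30 higher, Map6 (1.101, SE 0.29), Map1lc3b (0.62, SE 0.16) and Dync1h1 (0.55, SE 0.15), and 1 lower, Tacc3 (-0.33, SE 0.08), beside 221 genes higher and 258 lower of 9913. Torin 1 called 2 of the 30 higher and 1 lower in control footprints, where Tacc3 rose (0.34, SE 0.08), and 1 higher and 1 lower in Ctu1 iKO footprints, beside 287 genes higher and 427 lower of 9856 and 343 and 445 of 9855. In transcripts it called 2 higher and 4 lower in control cells, beside 547 genes higher and 712 lower of 9617, and 2 and 2 in Ctu1 iKO cells, beside 359 and 435 of 9619, Camsap1 falling in both (-0.47, SE 0.07 and -0.53, SE 0.10). Stmn1, encoding a protein that binds free tubulin dimers, was lower in Ctu1 iKO transcripts with DMSO (-0.34, SE 0.07, adjusted p = 0.034), and Map1lc3b higher (0.37, SE 0.08), where 5.12% of all genes were called.

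Over the 23 footprint libraries, the genes whose log2 CPM followed the summed tubulin footprints most closely, of 8842 compared, were Ldha (Pearson r = 0.96), Gm49450 (0.94), Lamp3 (0.93), Pgk1 (0.91) and Tcp1 (0.91). The points share the totals of their libraries, the replicate numbers and the treatment groups. Among the members themselves, Tuba1b correlated with the sum at 0.98, Tubb4b at 0.94 and Tubb5 at 0.88, which it contains, whereas Tubb2b stood at 0.68, Tubb2a at 0.62 and Tubb6 at -0.01.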

How the data were processed

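Per the labels, the deposited files hold counts per gene symbol, made by the authors without normalization. Footprints were trimmed with cutadapt 3.4, deduplicated with UMI-tools 1.1.1, freed of fragments under 27 nt and of rRNA, aligned and counted with STAR 2.5.3a. The labels name mm10 or GRCm38, whereas the methods name a human build, and the symbols are mouse. Entries reach at least 100 footprints in some library, and 23 entries with repeated symbols were left out. Poly(A) RNA was prepared with a stranded kit. All sequences came from the GENCODE transcripts of GRCm38.

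The members and lists were chosen with earlier results of these data known, so their p-values are no independent support. Counts were tested with edgeR 4.0.16 (quasi-likelihood, TMM, mean count of at least 10, Benjamini-Hochberg adjustment over all genes, threshold 0.05), on all footprint libraries and on transcript replicates 1 to 3. DESeq2 1.42.0 was an alternative. Levels are counts per 1000000 counts (CPM) over the symbols shared by both tables, or over all entries of 1 table for genes listed in 1 only. The tests were checked on simulated counts. Deviations of same-numbered samples correlated at 0.34 to 0.66 (footprints, torin 1 in control and Ctu1 iKO against control under torin 1) and at 0.49 to 0.84 (transcripts), every pair above 0.1, so the numbers paired these samples. Within groups, no 2 libraries agreed within sampling noise. The rule for naming genes covered all 8 members, and from each list at most the 4 genes with the largest change among those called. A marker gene and the ends of a pair of coding sequences are not reported here.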

Additional observations from a re-analysis of the deposited data

How the results depend on the processing

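Numbers of tubulin genes called are given here for settings that moved them by over 1.5 times, with all ranges over left-out libraries. Leaving out 1 library at a time gave, for footprints, 0 to 1 for Ctu1 iKO against control with DMSO, 0 to 0 for torin 1 in control, 1 to 1 for torin 1 in Ctu1 iKO, 1 to 5 for Ctu1 iKO against control under torin 1 and 0 to 0 for the difference. For transcripts, in the same order, it gave 0 to 0, 0 to 0, 0 to 2, 0 to 1 and 0 to 0, and for footprints relative to transcripts 0 to 0, 0 to 0, 2 to 2 and 0 to 1.

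DESeq2 called 2 footprint genes for Ctu1 iKO with DMSO, 2 for torin 1 in Ctu1 iKO and 5 for Ctu1 iKO under torin 1, 1 transcript for Ctu1 iKO under torin 1 and 1 ratio for Ctu1 iKO under torin 1. Footprints of replicates 1 to 3, or of 1 and 2, gave 0 for torin 1 in Ctu1 iKO and 0 for Ctu1 iKO under torin 1, while replicates 3 and later gave 2 and 5. With all transcript replicates, 3 tubulin genes were called for Ctu1 iKO with DMSO (among 1458 genes higher and 1219 lower in all), 0 for torin 1 in control and 0 for torin 1 in Ctu1 iKO. The same setting called 1 ratio each for torin 1 in Ctu1 iKO (32 genes higher and 225 lower in all) and Ctu1 iKO under torin 1 (6 and 108). Transcript replicates 1 to 4 on the side of their label, which were admitted by their torin 1 profile and so give no support, gave 2 for torin 1 in control (772 genes higher and 989 lower in all) and 1 for Ctu1 iKO under torin 1 (476 and 364). Replicates 1 and 2 gave 1 transcript for Ctu1 iKO with DMSO (873 and 674), 0 for torin 1 in control (702 and 809) and 1 ratio for torin 1 in Ctu1 iKO (5 and 151), for which replicates 1 to 3 also gave 1 (9 and 161). Summing near-identical genes left 0 transcripts for torin 1 in control (546 and 711) and 1 in Ctu1 iKO (358 and 435), where library totals alone also gave 1 (289 and 650). The cause of these changes was not tested, and neither was the part of the smaller number of samples in the subsets.

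With the replicate block, 4 footprint genes were called for torin 1 in control and 5 for Ctu1 iKO under torin 1, 4, 5, 4 and 4 transcripts for Ctu1 iKO with DMSO, torin 1 in control, torin 1 in Ctu1 iKO and Ctu1 iKO under torin 1, and 2 and 3 ratios for torin 1 in control and Ctu1 iKO under torin 1. Same-numbered footprint libraries did not pair for Ctu1 iKO with DMSO (r from -0.03 to 0.47, 6 of 10 samples nearest to their own number) or torin 1 in Ctu1 iKO (0.04 to 0.41, 5 of 10). There the block called 1 gene, Tubb4b (-0.31, adjusted p = 0.049), and 4 genes, Tubb5 with Tuba1a, Tuba1b and Tuba1c. It added Tuba1a to the ratios for torin 1 in Ctu1 iKO (-0.53, adjusted p = 0.017), among 21 genes higher and 260 lower in all.

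Over single genes, 4 values reversed: Tubb2a footprints for Ctu1 iKO under torin 1 in replicates 1 and 2 (0.031), and with all transcript replicates Tubb4b for torin 1 in Ctu1 iKO (0.041) and the difference for Tubb2b (-0.11) and Tubb2a (-0.16). A further 34 values, and 97 with 1 library left out, changed sign from a value within 1 SE of 0. Library totals alone moved the share of called genes that were higher, for footprints, from 61.0% to 73.2%, 40.2% to 64.8%, 43.5% to 64.7% and 46.1% to 58.2% in the order above, for transcripts from 43.4% to 33.3% and 45.2% to 30.8% with torin 1 and 73.0% to 58.2% for Ctu1 iKO under torin 1, and for ratios from 3.06% to 17.5% with torin 1 in Ctu1 iKO.

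Over all genes, the numbers called higher and lower in footprints for Ctu1 iKO under torin 1 were 221 and 258 as reported, 409 and 433 with DESeq2, 696 and 729 with the block, 0 and 1 in replicates 1 to 3, and 284 and 354 in replicates 3 and later. For torin 1 in Ctu1 iKO they were 343 and 445, 536 and 619 with DESeq2, 456 and 527 with the block, 31 and 147 in replicates 1 to 3, and 362 and 468 in replicates 3 and later. For Ctu1 iKO with DMSO, DESeq2 gave 383 and 317 and the block 195 and 169. For torin 1 in transcripts they were 547 and 712 in control and 359 and 435 in Ctu1 iKO, against 902 and 1061, and 792 and 817, with DESeq2, and 448 and 468, and 0 and 0, with all replicates. DESeq2 gave no adjusted p for some ratios, which were left out of its counts.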
